A study of Arabidopsis thaliana with 6 samples.

Results

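SAUR (small auxin up RNA) genes code for short proteins, and most of the Arabidopsis genes described here stand in tandem clusters. They were picked by locus identifier from a list of 38 loci, and all 38 were found among the 36796 genes of the count table. Of these, 31 lie in 6 clusters on chromosomes 1, 2, 3, 4 and 5, and 7 are dispersed. RNA was sequenced from shoot tissue of *ref4-3* and wild-type plants, both in the Col-0 background and both without any transgene or treatment named in the labels, with 3 libraries per genotype. The *ref4-3* plants carry a semidominant point mutation of *MED5b*, also named *REF4*, a subunit of the tail module of the transcriptional coregulator Mediator. Plants were 21 days old, had not bolted, and were pooled by 5 for each library, so that a library is a mean over plants. In such bulk samples, fewer cells of a type and less RNA per cell cannot be told apart.

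Auxin raises the transcript levels of many SAUR genes within minutes, which is how the family was found. The best studied members, those of the chromosome 5 cluster, inhibit phosphatases of the PP2C.D group. These phosphatases otherwise switch off the proton pumps of the plasma membrane, so that SAUR proteins promote wall acidification and cell expansion. Other members have been tied to cotyledon opening in light, leaf senescence, thermally induced growth and ethylene signaling, and several respond to light, brassinosteroid or temperature through transcription factors of the PIF and *BES1* groups.

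The 6 genes of the chromosome 5 cluster, *SAUR19* to *SAUR24*, are close copies of each other. Over whole coding sequences their 15 pairs were 87.7% to 95.2% identical, with a median of 91.2%. The first 60 coding bases of each are shown because reads from these genes can be told apart only where such copies differ. Sequences and coordinates are those of RefSeq on TAIR10.1, read 5′ to 3′ on the coding strand, and capitals mark a base that differs from the commonest base at that position among the 6 genes (the base of *SAUR19* where a pair of bases was equally common).
SAUR19, chr5:5963246-5963305, minus strand: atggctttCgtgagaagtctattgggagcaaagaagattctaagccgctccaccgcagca
SAUR20, chr5:5966521-5966580, minus strand: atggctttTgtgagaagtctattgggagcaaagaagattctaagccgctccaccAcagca
SAUR21, chr5:5968527-5968586, plus strand: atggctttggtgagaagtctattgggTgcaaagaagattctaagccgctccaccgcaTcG
SAUR22, chr5:5974904-5974963, minus strand: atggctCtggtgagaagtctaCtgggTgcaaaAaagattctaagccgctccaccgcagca
SAUR23, chr5:5976030-5976089, plus strand: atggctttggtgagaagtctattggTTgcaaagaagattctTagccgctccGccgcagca
SAUR24, chr5:5983840-5983899, plus strand: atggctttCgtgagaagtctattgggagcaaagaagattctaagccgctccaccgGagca
Between 1 and 4 of these 60 bases differed from the commonest base in each gene. *SAUR19* and *SAUR24*, at opposite ends of the cluster, formed the closest pair at 95.2%. In spite of this likeness, every window of 150 bases of each chromosome 5 transcript occurred at only 1 place in the genome. Of windows of 50 bases, 81.5% to 99.4% did.

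The other clusters were less alike. The chromosome 3 genes *SAUR26* to *SAUR29* were 77.7% to 86.3% identical to each other and 74.6% to 79.9% identical to the chromosome 5 genes. Identity within the chromosome 1 cluster ran between 45.4% and 89.3%, and its medians in the remaining clusters lay between 42.2% and 58.95%. All windows of 150 bases were unique for 35 of the 38 transcripts. The exceptions were *SAUR62*, *SAUR63* and *SAUR67* of chromosome 1, with 98.1%, 90.1% and 91.8% unique windows. Of the 38 genes, 37 have a single exon, and *SAUR64* has 2. The coding regions hold 86 to 186 codons. How reads with more than 1 match were handled was not given in the sources used here, so values of single genes in the chromosome 1 and chromosome 5 clusters carry that uncertainty, and cluster sums are given beside them.

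The promoters were searched for letters that bear on known regulators of the family. The window held 250 bases before and 50 bases after each annotated start, on both strands. The auxin response element TGTCTC was found in 8 of 38 members (21.1%), against 14.2% of 27444 protein-coding promoters. Its general form TGTCNN, of which TGTCTC is a special case, was found in 34 (89.5%), against 81.3%. The TATA box TATAAA was found in 18 (47.4%), against 52.1%. No member had the G-box CACGTG or the brassinosteroid response element CGTGTG, which were in 7.7% and 6.5% of all promoters. TATAAA was in 5 of 6 members of the *SAUR50* cluster of chromosome 4 and in 0 of 6 members of the chromosome 5 cluster. It was in 5 of 8 members of the chromosome 1 cluster and in 2 of 4 of the *SAUR13* to *SAUR16* cluster. The chromosome 3 cluster had it in 1 of 4, the chromosome 2 cluster in 1 of 3 and the dispersed genes in 4 of 7. These are matches of letters only, at any position of the window. Other forms of the TATA box, the G-box and the brassinosteroid response element were not searched. The 150 bases before the annotated start are shown for 8 genes on which the results turn. These are members with large decreases, *SAUR14* as a neighbor of *SAUR15*, *SAUR29* of the chromosome 3 cluster, and the member with the largest increase. *SAUR14* and *SAUR29* were not called. Capitals mark TGTCNN on either strand and TATAAA on either strand, and runs of capitals longer than 6 bases are adjoining or overlapping matches.
SAUR24, chr5:5983533-5983682, plus strand: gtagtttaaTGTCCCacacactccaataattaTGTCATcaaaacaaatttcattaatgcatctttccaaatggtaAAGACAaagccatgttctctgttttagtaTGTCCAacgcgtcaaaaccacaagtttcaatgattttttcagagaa
SAUR23, chr5:5975630-5975779, plus strand: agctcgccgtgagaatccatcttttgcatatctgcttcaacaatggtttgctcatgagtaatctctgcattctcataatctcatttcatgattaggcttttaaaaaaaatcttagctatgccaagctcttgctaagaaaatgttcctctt
SAUR67, chr1:10322273-10322422, plus strand: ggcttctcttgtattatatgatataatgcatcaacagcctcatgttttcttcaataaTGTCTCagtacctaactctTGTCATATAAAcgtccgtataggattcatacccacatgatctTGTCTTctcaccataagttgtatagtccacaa
SAUR15, chr4:18125907-18126056, plus strand: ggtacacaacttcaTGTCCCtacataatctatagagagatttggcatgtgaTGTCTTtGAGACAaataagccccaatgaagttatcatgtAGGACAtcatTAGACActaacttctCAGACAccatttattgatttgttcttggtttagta
SAUR14, chr4:18125560-18125709, minus strand: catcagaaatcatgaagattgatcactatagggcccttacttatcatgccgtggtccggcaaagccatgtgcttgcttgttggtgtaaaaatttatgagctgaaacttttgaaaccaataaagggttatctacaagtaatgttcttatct
SAUR16, chr4:18130087-18130236, plus strand: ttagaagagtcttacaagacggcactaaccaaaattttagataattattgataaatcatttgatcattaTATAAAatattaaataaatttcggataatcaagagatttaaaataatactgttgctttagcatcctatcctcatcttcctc
SAUR29, chr3:977475-977624, minus strand: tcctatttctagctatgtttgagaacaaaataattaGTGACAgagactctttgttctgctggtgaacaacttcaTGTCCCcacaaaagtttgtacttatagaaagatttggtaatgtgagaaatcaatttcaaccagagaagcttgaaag
SAUR36, chr2:18641413-18641562, plus strand: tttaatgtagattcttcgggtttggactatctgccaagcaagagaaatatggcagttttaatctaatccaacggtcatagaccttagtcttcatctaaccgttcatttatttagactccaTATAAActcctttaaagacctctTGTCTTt
*SAUR24* and *SAUR15* have several TGTCNN matches in these 150 bases, whereas *SAUR23* and *SAUR14* have none there. Transcripts of *SAUR23* fell in *ref4-3*, while those of *SAUR14* were not called.

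The 6 libraries held 26060005 to 32879414 counts, of which the 38 SAUR genes took 5440 to 7276 in *ref4-3* and 5218 to 9841 in wild type. At these depths 3 counts, taken here as the smallest signal that can be detected, correspond to 0.0912 to 0.115 CPM (counts scaled to a common library total), and this limit covers counting error only. Levels are given as CPM scaled by TMM, a normalization that assumes that most genes do not change. The TMM factors were 1.051 to 1.119 in *ref4-3* and 0.8746 to 0.9607 in wild type. Without them the median log2 fold change of all tested genes was 0.261 in place of 0.014. Wild-type replicate 2 stood apart with counts in 27913 genes, against 32015 to 34884 in the other 5 libraries. Rosette leaf marker genes were abundant in every library, as the labelled tissue requires, and 4 of 6 (*CAB1*, *CAB2*, *LHB1B2* and *RCA*) fell, with summed levels of 31280 to 42130 CPM in *ref4-3* and 62560 to 69810 CPM in wild type. The 6 root markers summed to 1.65 to 2.79 CPM in *ref4-3* and 0.80 to 1.46 CPM in wild type, and the 6 flower markers to 6.90 to 11.1 CPM in *ref4-3* and 11.7 to 16.1 CPM in wild type. Among flower markers *SEP3* fell (log2 fold change −1.36, adjusted p = 0.0282) and *LFY* rose (0.92, adjusted p = 0.0467). No marker was at 0 in all libraries, and the part of these shifts in the SAUR results was not tested. The transcript of *MED5b* itself differed by a log2 fold change of −0.31 (adjusted p = 0.202), which checks no label, since the allele is a point mutation.

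Most tested SAUR genes of 3 clusters fell in *ref4-3*, and no gene of the other 3 clusters was called. Of 23050 genes with enough counts to test, 35 were SAUR members, and 3 members (*SAUR2*, *SAUR61* and *SAUR68*) had too few. At an adjusted p under 0.05 (edgeR's quasi-likelihood test), 14 members fell, or 40.0% of the 35, where 11.9% of all tested genes fell. By the same rule 2 members rose, or 5.7%, where 8.52% of all tested genes rose. In either direction 16 members were called, where 20.4% of all tested genes were. All 14 that fell did so by more than 2-fold, between 3.60- and 8.85-fold, where 5.24% of all tested genes fell by that rule. Of these 14, 11 had a *ref4-3* library under 50 counts, so their fold changes rest on few counts. Of the 2 that rose, 1 (*SAUR36*) did so by more than 2-fold, where 4.48% of all tested genes did. The median log2 fold change was −0.73 over the 35 members and 0.014 over all tested genes. Every *ref4-3* library lay below every wild-type library for 17 of the 35, or 48.6%, where 22.7% of all tested genes did so. The reverse was true of 3 members (*SAUR4*, *SAUR36* and *SAUR41*), where 22.5% of all tested genes did so. The members were chosen with earlier results of these data known, so these shares describe the list and are not a test. Without a filter on low counts 19 of the 38 members were called, and *SAUR19*, *SAUR63* and *SAUR68* were the added ones. With 3 libraries in each genotype, an exact permutation test of a single gene cannot give a two-sided p under 0.1.

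**Figure D1:**
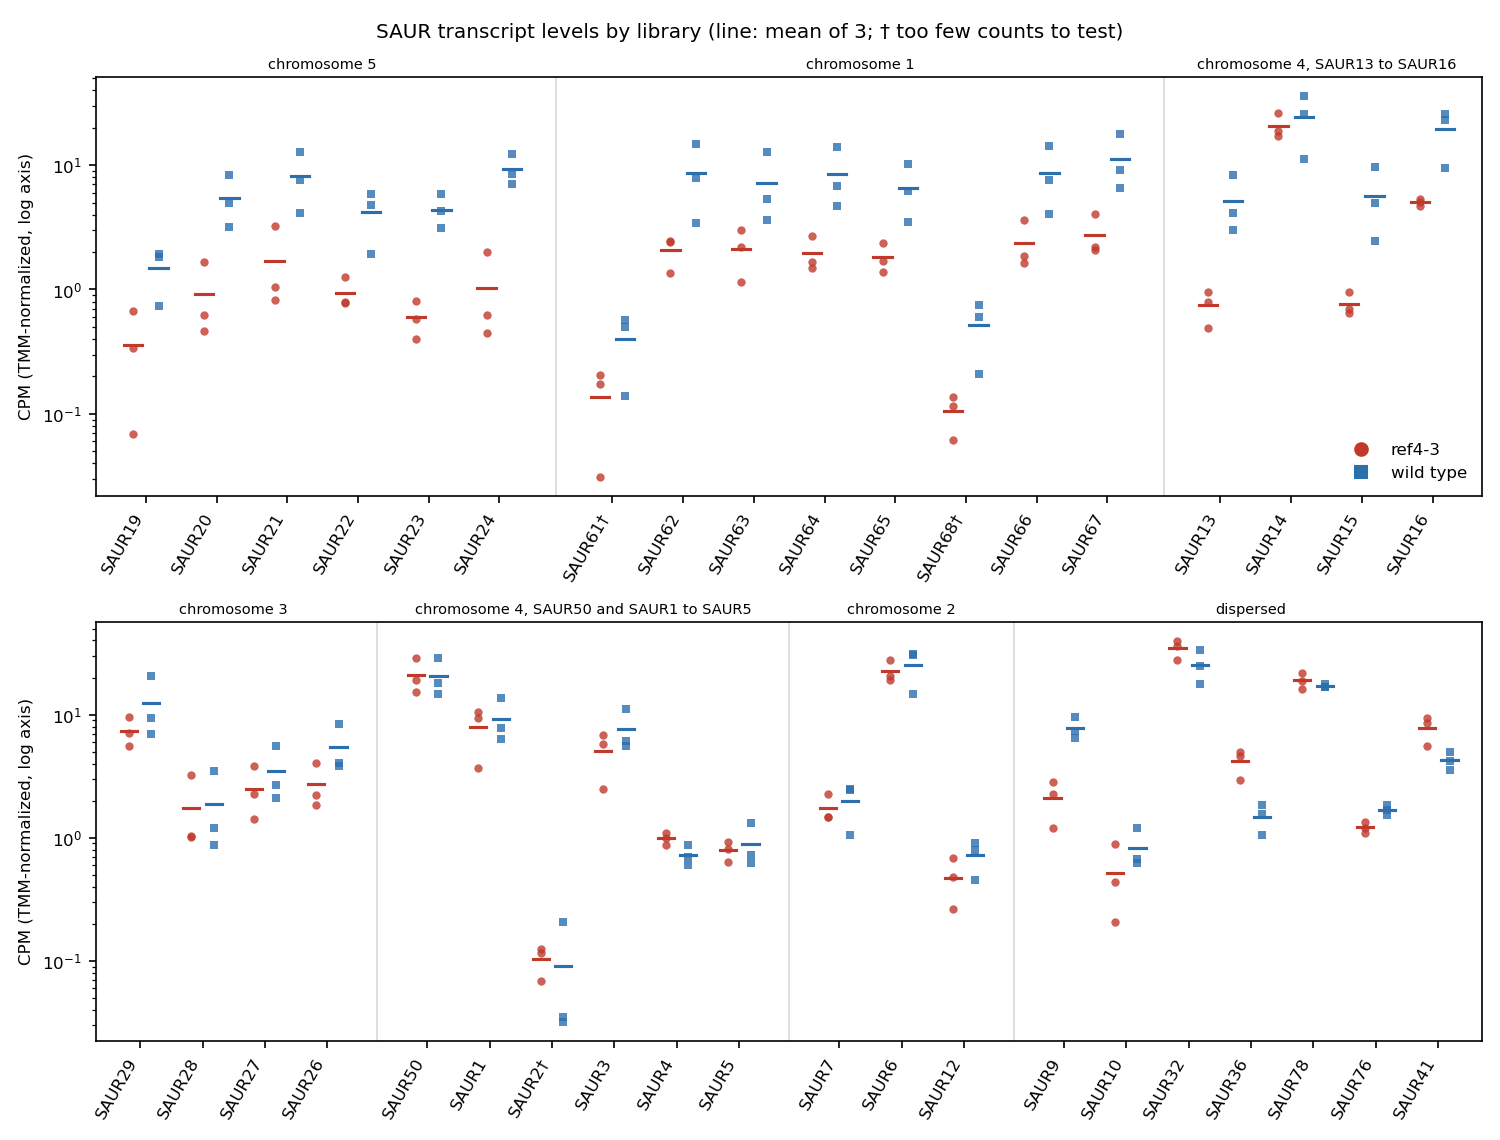
Transcript level of each SAUR gene in each library, in TMM-normalized CPM on a log axis, with *ref4-3* as red circles, wild type as blue squares and the mean of 3 libraries as a line. In the top row the red circles lie below the blue squares for every gene of the chromosome 5 cluster and for *SAUR13*, *SAUR15* and *SAUR16*, while *SAUR14* overlaps; in the bottom row most genes overlap.

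The chromosome 5 cluster spans chr5:5962773-5984308, or 21.5 kb, with 3 genes on each strand. All 6 genes were lower in every *ref4-3* library than in every wild-type library, and 5 were called. *SAUR24* (*AT5G18080*), the most abundant member of this cluster per length in wild type, had 2.01, 0.45 and 0.62 CPM in *ref4-3* replicates 1 to 3, against 8.55, 6.99 and 12.2 CPM in wild-type replicates 1 to 3. It showed the largest decrease of all members, with a log2 fold change of −3.15 ± 0.52 (SE), or 8.85-fold (adjusted p = 0.00955). Its *ref4-3* libraries held 69, 13 and 20 counts. *SAUR23* (*AT5G18060*) had 0.81, 0.58 and 0.40 CPM in *ref4-3*, against 4.26, 3.10 and 5.83 CPM in wild type. Its log2 fold change was −2.85 ± 0.35 (adjusted p = 0.00431), the smallest adjusted p among the members. Both calls were retained when any 1 of the 6 libraries was left out.

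The neighbors of *SAUR23* and *SAUR24* had smaller or less even decreases. *SAUR20* (*AT5G18020*) had 1.66, 0.62 and 0.46 CPM in *ref4-3*, against 4.99, 3.17 and 8.26 CPM in wild type (log2 fold change −2.56 ± 0.53, adjusted p = 0.0186). *SAUR21* (*AT5G18030*) had 3.23, 0.82 and 1.05 CPM in *ref4-3*, against 7.66, 4.14 and 12.8 CPM in wild type (log2 fold change −2.25 ± 0.59, adjusted p = 0.0353). Replicate 1 was the highest *ref4-3* library for all 6 genes of the cluster, and replicate 3 was the highest wild-type library for all 6. *SAUR22* (*AT5G18050*) had 1.25, 0.79 and 0.77 CPM in *ref4-3*, against 4.73, 1.91 and 5.87 CPM in wild type (log2 fold change −2.14 ± 0.44, adjusted p = 0.0177). *SAUR19* (*AT5G18010*), whose protein is the model for inhibition of PP2C.D phosphatases, was the scarcest, with 0.67, 0.07 and 0.34 CPM in *ref4-3* and 1.81, 0.73 and 1.94 CPM in wild type. Its *ref4-3* replicate 2 held 2 counts, which is under the detection limit, and its log2 fold change of −2.01 ± 0.66 did not pass the test (adjusted p = 0.0682). *SAUR19* was called without wild-type replicate 2 (adjusted p = 0.0446), by edgeR's exact test and by DESeq2. Without *ref4-3* replicate 2 or without *ref4-3* replicate 3, only *SAUR23* and *SAUR24* of this cluster were called.

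As a cluster, *SAUR19* to *SAUR24* summed to 9.63, 3.33 and 3.66 CPM in *ref4-3*, against 32.0, 20.0 and 46.9 CPM in wild type. If each read was counted once, the sum does not depend on how reads were divided among the 6 copies. It would lack reads that were discarded for matching more than 1 place. Reads counted at every match would enter it more than once. All 3 *ref4-3* sums lay below all 3 wild-type sums. The log2 ratio of the mean sums was −2.57.

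The chromosome 1 cluster, *SAUR61* to *SAUR68*, spans chr1:10301377-10323239, or 21.9 kb. Members of this group, of which *SAUR63* is the best studied, promote elongation of hypocotyls and stamen filaments. Of its 8 genes, 6 had enough counts, and 5 of them fell by similar amounts, with log2 fold changes between −2.11 and −1.85. Wild-type replicate 3 was the highest wild-type library for all 6 tested genes. Without it the log2 fold changes of these 5 lay between −1.59 and −1.315. The locus *AT1G29510* is called *SAUR67* here, as its annotated description has it, although its annotated symbol is *SAUR68*. It had the highest wild-type level per length of the cluster, with 4.01, 2.06 and 2.2 CPM in *ref4-3*, against 9.18, 6.51 and 17.9 CPM in wild type (log2 fold change −2.01 ± 0.42, adjusted p = 0.0193). *SAUR64* (*AT1G29450*) had 2.71, 1.65 and 1.49 CPM in *ref4-3*, against 6.83, 4.66 and 14.0 CPM in wild type (log2 fold change −2.11 ± 0.44, adjusted p = 0.0183). *SAUR62* (*AT1G29430*) had 2.41, 2.47 and 1.36 CPM in *ref4-3*, against 7.88, 3.41 and 14.8 CPM in wild type (log2 fold change −2.06 ± 0.51, adjusted p = 0.0315). In each of these genes the lowest wild-type library, replicate 2, was less than 2-fold above at least 1 *ref4-3* library.

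*SAUR65* (*AT1G29460*) had 2.36, 1.68 and 1.39 CPM in *ref4-3*, against 6.20, 3.48 and 10.1 CPM in wild type (log2 fold change −1.86 ± 0.40, adjusted p = 0.0206). *SAUR66* (*AT1G29500*) had 3.64, 1.86 and 1.64 CPM in *ref4-3*, against 7.53, 4.07 and 14.3 CPM in wild type (log2 fold change −1.85 ± 0.49, adjusted p = 0.038). *SAUR63* itself (*AT1G29440*) had 3.03, 2.2 and 1.15 CPM in *ref4-3*, against 5.34, 3.62 and 12.8 CPM in wild type. The libraries of *SAUR63* did not overlap, but its log2 fold change of −1.76 ± 0.52 missed the threshold (adjusted p = 0.0516), and it was called without wild-type replicate 2 (adjusted p = 0.0312), by edgeR's exact test and by DESeq2. *SAUR63* lies wholly within a gene on the opposite strand, *AT1G29435*, to which 3 to 4 counts were assigned in *ref4-3* and 0 to 2 in wild type, and the strand setting of the counting was not given in the sources used here. *SAUR61* (*AT1G29420*) and *SAUR68* (*AT1G29490*) were near the detection limit. *SAUR61* had 1 to 6 counts in *ref4-3* and 4 to 18 counts in wild type, which overlapped. *SAUR68* had 0.116, 0.137 and 0.062 CPM in *ref4-3*, against 0.604, 0.209 and 0.744 CPM in wild type. Its genotypes did not overlap. It had enough counts to test in 4 of the 6 fits that left out a library, and was called in 1 of them, the fit without wild-type replicate 2 (adjusted p = 0.0141). None of the 6 tested genes of this cluster was called without *ref4-3* replicate 2 or without *ref4-3* replicate 3.

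The chromosome 1 sum was 18.4, 12.3 and 9.32 CPM in *ref4-3*, against 44.1, 26.1 and 85.1 CPM in wild type, without overlap. The log2 ratio of the mean sums was −1.96. Wild-type replicates 2 and 3 differed more than 3-fold in this sum, which was a wider spread than among the *ref4-3* libraries.

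**Figure D2:**
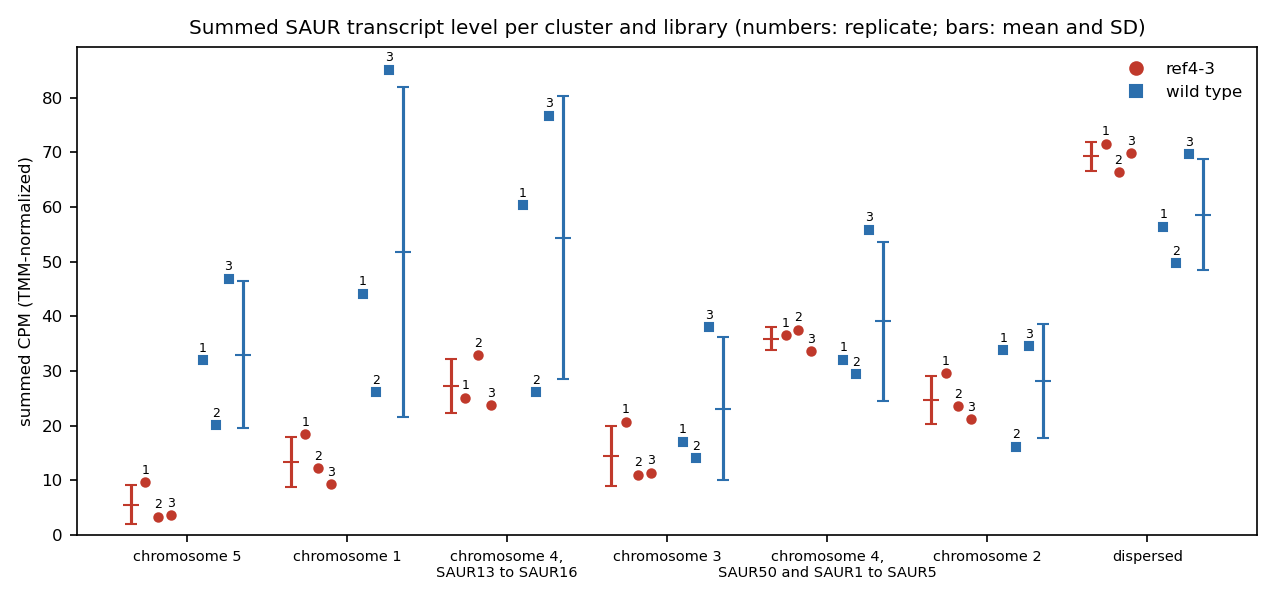
Summed SAUR level of each cluster in each library, in TMM-normalized CPM, with *ref4-3* as red circles, wild type as blue squares, the replicate number above each point, and the mean and SD of 3 libraries as a cross bar beside the points. The *ref4-3* points lie below the wild-type points without overlap for the chromosome 5 and chromosome 1 clusters, and overlap them for the other 4 clusters and for the dispersed genes.

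The *SAUR13* to *SAUR16* cluster at chr4:18121526-18131284 was split. *SAUR13*, *SAUR15* and *SAUR16* fell, while *SAUR14*, which lies between *SAUR13* and *SAUR15*, was not called. *SAUR15* (*AT4G38850*), known as *SAUR-AC1* and widely used as an early auxin response gene, had 0.70, 0.65 and 0.96 CPM in *ref4-3*, against 4.93, 2.47 and 9.59 CPM in wild type (log2 fold change −2.86 ± 0.50, or 7.28-fold, adjusted p = 0.0112). *SAUR13* (*AT4G38825*) had 0.49, 0.79 and 0.96 CPM in *ref4-3*, against 4.10, 2.99 and 8.31 CPM in wild type (log2 fold change −2.77 ± 0.45, or 6.82-fold, adjusted p = 0.00893). All *ref4-3* libraries of both genes were under 1 CPM, and both calls were retained when any 1 library was left out. *SAUR13* is overlapped over 89.3% of its length by *AT4G38820* on the opposite strand, to which 2 to 4 counts were assigned in *ref4-3* and 0 to 1 in wild type.

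*SAUR16* (*AT4G38860*), which promotes cotyledon opening in light, had 5.06, 5.32 and 4.68 CPM in *ref4-3*, against 25.7, 9.50 and 22.9 CPM in wild type. Its *ref4-3* libraries were close together, its log2 fold change was −1.95 ± 0.35 (adjusted p = 0.0118), and it was called in every fit that left out a library except the one without *ref4-3* replicate 3 (adjusted p = 0.0594). *SAUR14* (*AT4G38840*), also a light-induced gene of cotyledons, had 18.9, 26.1 and 17.2 CPM in *ref4-3*, against 25.6, 11.2 and 35.9 CPM in wild type. Its genotypes overlapped, with a log2 fold change of −0.23 ± 0.38 (adjusted p = 0.683). Per kb of exon, *SAUR14* was the most abundant member in wild type at 41.6 CPM, and its level in *ref4-3* was 35.6 CPM per kb. Since *SAUR14* and its neighbors were measured in the same libraries, their ratio removes differences in depth and scaling between libraries. The ratio of *SAUR16* to *SAUR14* was 0.269, 0.204 and 0.272 in *ref4-3*, against 1.00, 0.851 and 0.638 in wild type. The ratio of *SAUR13* and *SAUR15* together to *SAUR14* was 0.0633, 0.0553 and 0.112 in *ref4-3*, against 0.352, 0.489 and 0.498 in wild type. These ratios were chosen after the values had been seen, and neither overlapped between genotypes. The cluster sum, of which *SAUR14* was the largest part in *ref4-3*, overlapped, at 25.1, 32.8 and 23.8 CPM in *ref4-3* and 60.3, 26.1 and 76.7 CPM in wild type (log2 ratio of the means −0.997).

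The chromosome 3 cluster at chr3:976715-983768 holds *SAUR26* to *SAUR29*, a group tied to natural variation in how rosette growth responds to temperature. Among the clusters described here it was, as a whole, the closest in sequence to the chromosome 5 cluster. The single genes *SAUR13* and *SAUR7* were as close, with 75.6% to 77.9% and 75.0% to 78.3% identity to the chromosome 5 genes. Of the 4 chromosome 3 genes, 0 was called by edgeR's quasi-likelihood test, its exact test or DESeq2, and the genotypes overlapped in all 4. At an unadjusted p under 0.05 there was 1, *SAUR26*. *SAUR29* (*AT3G03820*) was the most abundant, with 9.60, 5.53 and 7.09 CPM in *ref4-3*, against 9.37, 6.99 and 20.6 CPM in wild type (log2 fold change −0.73 ± 0.40, adjusted p = 0.219). The other log2 fold changes were −0.98 for *SAUR26*, −0.45 for *SAUR27* and −0.06 for *SAUR28*, with adjusted p-values of 0.12 to 0.955. Leaving out a library moved the value of *SAUR28* between −0.84 and 0.73. The cluster sum was 20.7, 11.1 and 11.4 CPM in *ref4-3*, against 17.1, 14.0 and 38.1 CPM in wild type.

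Within each library, the chromosome 5 sum was 0.464, 0.301 and 0.321 times the chromosome 3 sum in *ref4-3*, against 1.87, 1.43 and 1.23 times in wild type. The mean ratios were 0.362 ± 0.089 in *ref4-3* and 1.51 ± 0.33 in wild type (SD, n = 3 each). The chromosome 1 sum was 0.889, 1.11 and 0.818 times the chromosome 3 sum in *ref4-3*, against 2.58, 1.86 and 2.24 times in wild type. These ratios were also chosen after the values had been seen. The genotypes did not overlap in either ratio, so the chromosome 1 and chromosome 5 clusters were lower in *ref4-3* relative to the chromosome 3 cluster of the same library as well as in CPM.

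**Figure D3:**
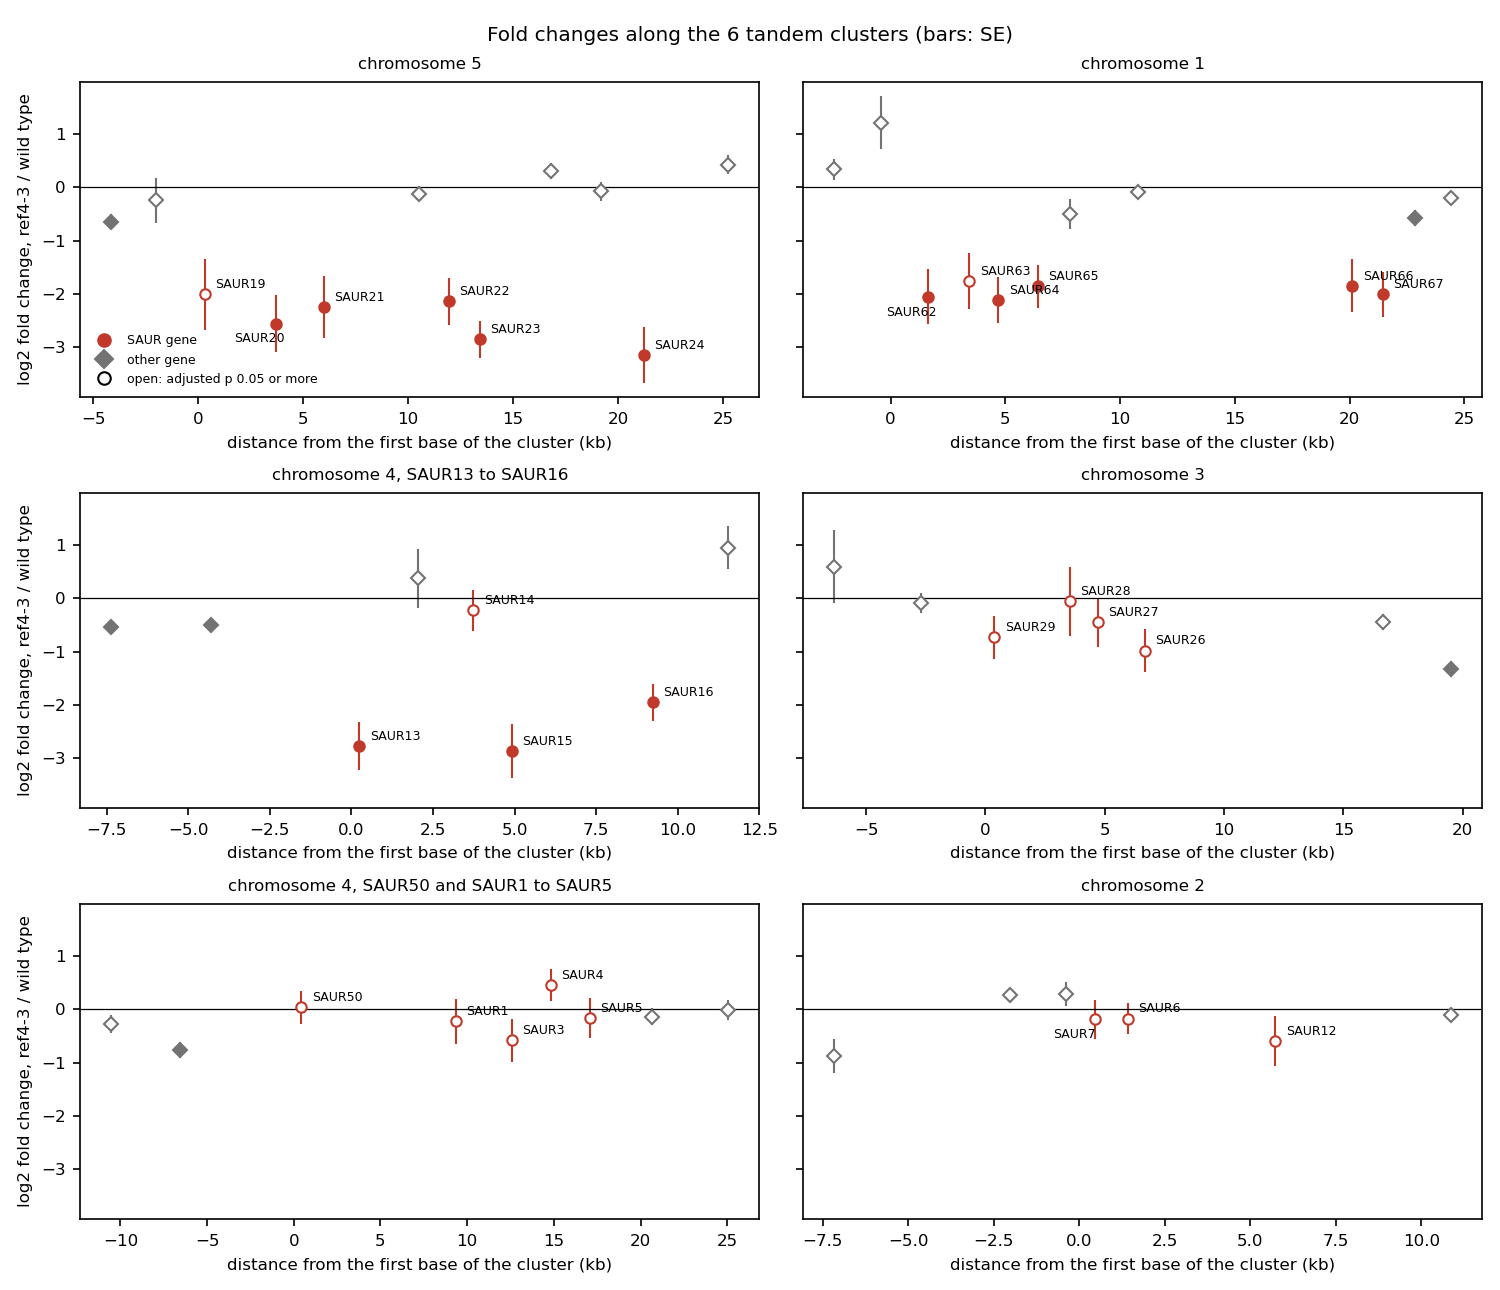
Log2 fold change of *ref4-3* over wild type, with its SE as a bar, against the distance in kb from the first base of each of the 6 tandem clusters, for SAUR genes (red circles) and the other tested genes between or beside them (gray diamonds). Filled symbols had an adjusted p under 0.05; the filled red circles of the chromosome 5 and chromosome 1 clusters and of *SAUR13* to *SAUR16* lie between −3.15 and −1.85, while the gray diamonds between them are open and lie between −0.50 and 0.38.

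The remaining clusters gave 0 calls by edgeR's quasi-likelihood test, its exact test and DESeq2, and 0 at an unadjusted p under 0.05. The second chromosome 4 cluster, at chr4:16582183-16599568, holds *SAUR50* and *SAUR1* to *SAUR5*. *SAUR50* (*AT4G34760*), which like *SAUR16* promotes cotyledon opening, had 28.7, 19.1 and 15.2 CPM in *ref4-3*, against 18.2, 14.6 and 28.8 CPM in wild type (log2 fold change 0.04 ± 0.30, adjusted p = 0.938). The values of *SAUR1*, *SAUR3* and *SAUR5* were −0.22, −0.58 and −0.16 on the log2 scale, with adjusted p-values of 0.319 to 0.768. *SAUR4* was the only gene of this cluster whose genotypes did not overlap. Every *ref4-3* library (0.873, 1.10 and 0.991 CPM) lay above every wild-type library (0.604, 0.696 and 0.868 CPM). Its log2 fold change of 0.45 ± 0.30 was not called (adjusted p = 0.287). *SAUR2* had 2 to 4 counts in *ref4-3* and 1 to 5 in wild type. The summed level was 36.6, 37.5 and 33.6 CPM in *ref4-3*, against 32.1, 29.4 and 55.8 CPM in wild type.

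The chromosome 2 cluster at chr2:9083906-9090052 holds *SAUR6*, *SAUR7* and *SAUR12*. *SAUR6* (*AT2G21210*) had 27.9, 20.8 and 19.0 CPM in *ref4-3*, against 30.5, 14.7 and 31.1 CPM in wild type (log2 fold change −0.17 ± 0.29, adjusted p = 0.681). Its annotated transcript overlaps that of *SAUR7* on the same strand by 176 bases. *SAUR7* (log2 fold change −0.19, adjusted p = 0.728) and *SAUR12* (−0.59, adjusted p = 0.368) overlapped between genotypes too. The cluster sum was 29.6, 23.5 and 21.1 CPM in *ref4-3*, against 33.8, 16.2 and 34.5 CPM in wild type.

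The 7 dispersed genes held both increases. *SAUR36* (*AT2G45210*), also named *SAG201* and known to promote leaf senescence, had 2.94, 4.95 and 4.62 CPM in *ref4-3*, against 1.56, 1.04 and 1.86 CPM in wild type. It rose 2.80-fold (log2 fold change 1.49 ± 0.30, adjusted p = 0.0167). *SAUR41* (*AT1G16510*), which promotes cell expansion when overexpressed, had 5.53, 9.31 and 8.52 CPM in *ref4-3*, against 4.23, 3.58 and 4.96 CPM in wild type. It rose 1.83-fold (log2 fold change 0.87 ± 0.24, adjusted p = 0.0392). Both had the *ref4-3* libraries above the wild-type libraries without overlap. *SAUR36* was called in 4 of the 6 fits that left out a library, with adjusted p-values of 0.0162 to 0.0728, and not without *ref4-3* replicate 2 or replicate 3. *SAUR41* was called in 1 of 6, the fit without *ref4-3* replicate 1.

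*SAUR9* (*AT4G36110*), a further inhibitor of PP2C.D phosphatases, was the dispersed gene that fell. It had 2.85, 1.20 and 2.26 CPM in *ref4-3*, against 6.42, 7.41 and 9.55 CPM in wild type (log2 fold change −1.88 ± 0.32, adjusted p = 0.0101), and its call was retained when any 1 library was left out. *SAUR32* (*AT2G46690*) had the highest level per length of all members in *ref4-3*, at 38.5 CPM per kb, and 28.4 CPM per kb in wild type. Its CPM were 39.5, 27.9 and 36.0 in *ref4-3*, against 25.0, 17.7 and 33.5 in wild type, which overlapped (log2 fold change 0.44 ± 0.24, adjusted p = 0.211). *SAUR76* and *SAUR78*, which in overexpression studies act in ethylene signaling, were not called. *SAUR78* had a log2 fold change of 0.15 ± 0.14 (adjusted p = 0.432), and *SAUR76* had one of −0.47 ± 0.23 (adjusted p = 0.172) with all *ref4-3* libraries below all wild-type libraries. *SAUR10* had a log2 fold change of −0.67 (adjusted p = 0.392). The dispersed genes summed to 71.5, 66.3 and 69.8 CPM in *ref4-3*, against 56.4, 49.7 and 69.6 CPM in wild type.

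Levels were compared between genes per length. Per kb of exon, the 5 most abundant members in *ref4-3* were *SAUR32* (38.5 CPM per kb), *SAUR14* (35.6), *SAUR50* (23.6), *SAUR6* (16.1) and *SAUR78* (15.7), and none of these 5 was called. In wild type they were *SAUR14* (41.6 CPM per kb), *SAUR32* (28.4), *SAUR50* (23.0), *SAUR16* (18.5) and *SAUR6* (18.1). *SAUR24* stood at 1.64 CPM per kb in *ref4-3* and 14.8 CPM per kb in wild type, and *SAUR16* at 4.79 in *ref4-3* and 18.5 in wild type. These ranks are by the mean of 3 libraries, and several are not resolved. In *ref4-3*, *SAUR32* and *SAUR14*, and *SAUR6* and *SAUR78*, differed by less than the range of their libraries. In wild type, each of the 5 members differed from the next in rank by less than the range of their libraries.

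Libraries of 1 genotype also differed among themselves. Wild-type replicate 3 was the highest wild-type library for 32 of the 35 tested members, and wild-type replicate 2 was the lowest for 30. In *ref4-3*, replicate 1 was the highest for 20 of 35, which included 6 of 6 chromosome 5 genes and 4 of 4 chromosome 3 genes. Of the 16 calls, 5 (*SAUR9*, *SAUR13*, *SAUR15*, *SAUR23* and *SAUR24*) were made in all 6 fits that left out a library, and the other 11 were lost in at least 1. Besides losses without *ref4-3* replicates 2 and 3, *SAUR62* lost its call without *ref4-3* replicate 1, *SAUR21* without wild-type replicate 1, *SAUR21*, *SAUR62* and *SAUR66* without wild-type replicate 3, and *SAUR41* without any 1 of the wild-type libraries. The calls numbered 15, 6 and 5 without *ref4-3* replicates 1, 2 and 3, and 14, 18 and 12 without wild-type replicates 1, 2 and 3. Calls over all genes numbered 4701 with all libraries, 1885 without *ref4-3* replicate 2 and 1008 without *ref4-3* replicate 3. No called member changed direction in any of these fits.

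**Figure D4:**
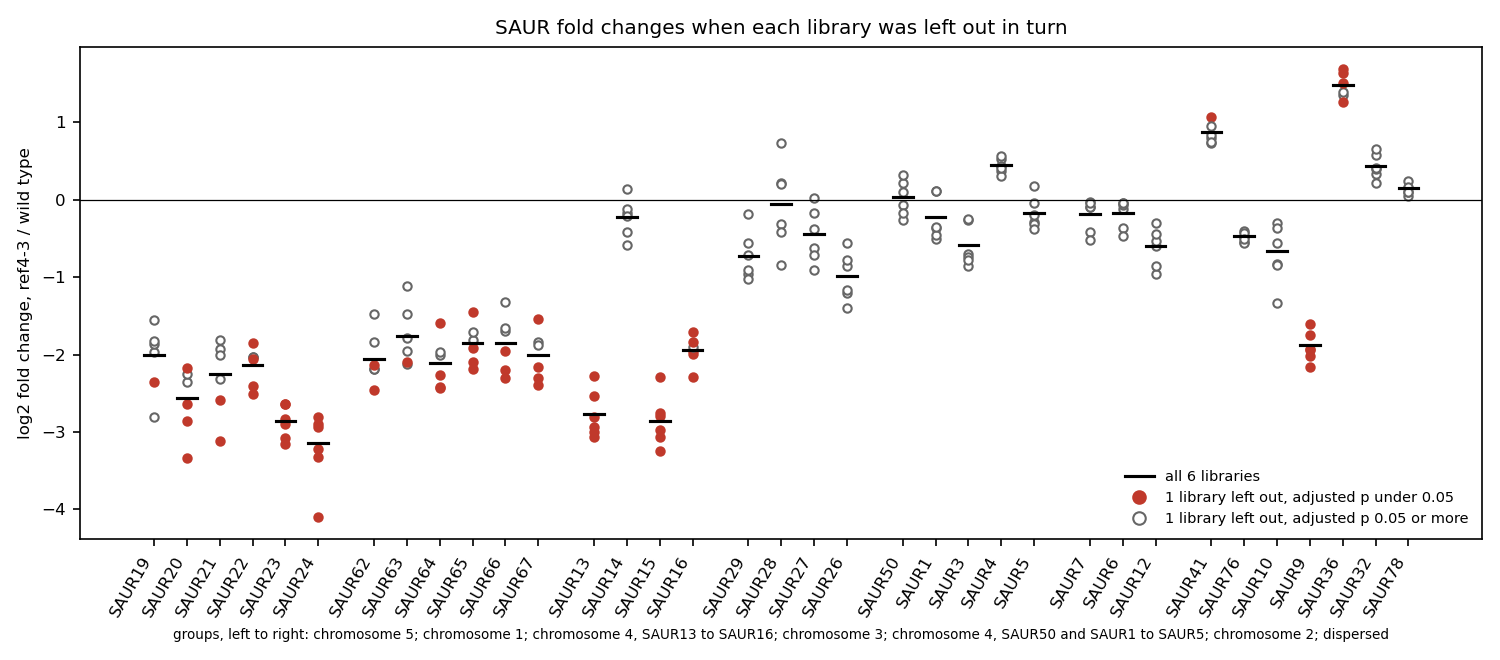
Log2 fold change of *ref4-3* over wild type for each of the 35 tested members, with all 6 libraries (black line) and with each library left out in turn (circles, filled red where the adjusted p was under 0.05). *SAUR23*, *SAUR24*, *SAUR13*, *SAUR15* and *SAUR9* have 6 filled circles, whereas the chromosome 1 genes have open circles among them and *SAUR28* lies on both sides of 0.

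Genes that share the chromosome stretch but not the family were examined next. Of 37 genes between or directly beside the cluster members, 28 were tested, and 6 fell while 0 rose by edgeR's quasi-likelihood test, where 11.9% of all tested genes fell and 8.52% rose. At an unadjusted p under 0.05, 3 rose, and DESeq2 called 1. With library totals in place of TMM factors, 1 fell and 3 rose. Without *ref4-3* replicate 2 and replicate 3, 3 and 1 of these genes were called. Their median log2 fold change was −0.12. None of the 6 lay between SAUR genes, where 7 genes were tested and 0 had even an unadjusted p under 0.05. In the chromosome 5 cluster, *AT5G18040*, *AT5G18065* and *AT5G18070* (*DRT101*) had log2 fold changes of −0.12, 0.31 and −0.08 and lie among SAUR genes that differed by −3.15 to −2.01. In the chromosome 1 cluster, *AT1G29470* and *AT1G29465* had −0.09 and −0.50. The largest change beside a cluster was that of *AT3G03870*, next to the chromosome 3 genes, at −1.32 ± 0.15 (adjusted p = 0.00349). The others that fell, *ASE2*, *TRP1*, *AT1G29520*, *MTN1* and *AT4G38810*, had values between −0.76 and −0.50.

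Another 41 genes are annotated as SAUR but were not on the list of 38. Of these 28 were tested, 4 fell and 3 rose, where 11.9% of all tested genes fell and 8.52% rose, and their median log2 fold change was −0.07. *SAUR52* (*AT1G75590*) had 1.05, 1.44 and 1.67 CPM in *ref4-3*, against 5.05, 6.05 and 7.27 CPM in wild type (log2 fold change −2.14 ± 0.24, adjusted p = 0.0035). *SAUR34* fell by 2.69 on the log2 scale (adjusted p = 0.0259), *SAUR53* by 1.12 (adjusted p = 0.0137) and *SAUR31* by 1.05 (adjusted p = 0.0144). The 3 that rose, *SAUR74*, *SAUR77* and *SAUR39*, had log2 fold changes of 2.34, 1.44 and 1.41 and stayed under 1 CPM in every library. Calls among these 28 genes numbered 3, 3 and 1 without *ref4-3* replicates 1, 2 and 3, and 4 without wild-type replicate 1.

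Of 39 genes known to act upstream or downstream of SAUR genes, all tested, 11 fell and 1 rose, where 11.9% of all tested genes fell and 8.52% rose. This list too was chosen with earlier results of these data known, so its counts are a description only. Among 8 further transcription factors that act on SAUR promoters, 4 fell. *PIF4*, which promotes growth in warmth and shade, had 100.3, 46.4 and 50.6 CPM in *ref4-3*, against 209, 198 and 139 CPM in wild type (log2 fold change −1.47 ± 0.32, adjusted p = 0.0205). *PIF5* (annotated as *PIL6*) had a log2 fold change of −1.10, *PIF7* of −0.51 and *BES1*, a factor of brassinosteroid signaling, of −0.70, while *PIF3* rose by 0.60. Of 5 activating auxin response factors, *ARF19* (−0.86, adjusted p = 0.00809) and *ARF8* (−0.80, adjusted p = 0.0199) fell, and of 6 auxin receptors, *AFB4* (−0.65) and *AFB5* (−0.63) fell. On the side of SAUR targets, 2 of 9 PP2C.D phosphatase genes fell, *AT5G02760* by 1.99 on the log2 scale (adjusted p = 0.0115) and *AT5G06750* by 0.84. Of 11 plasma membrane proton pump genes, *AHA2* (annotated as *HA2*) fell by 0.64 (adjusted p = 0.0385). Calls among these 39 genes numbered 6, 5 and 2 without *ref4-3* replicates 1, 2 and 3. With library totals in place of TMM factors, the pathway counts were 6 that fell and 5 that rose, whereas the 16 calls among the SAUR members stayed the same genes.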

How the data were processed

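RNA of 3 *ref4-3* and 3 wild-type libraries was analyzed. Paired-end reads were trimmed by the authors with fastp 0.23.2. They mapped them to TAIR10 with HISAT2 2.2.1, sorted them with SAMtools 1.17 and deposited raw counts per gene of Araport11, without normalization or pooling. The strand setting and the handling of reads with more than 1 match were not given in the sources used here. Libraries held 26060005 to 32879414 counts, and limits of detection cover counting error only.

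Genes passing filterByExpr (minimum count 10, minimum total 15) were tested two-sided with edgeR 4.0.16 in R 4.3.3 (TMM factors, quasi-likelihood test, Benjamini-Hochberg adjustment over all 23050 tested genes), which was tested on simulated data. SE was obtained from the F statistic. Replicates were biological, each a pool of 5 plants. Replicate numbers were not used to pair samples in the main fit. Deviations of same-numbered libraries correlated at −0.002, −0.12 and 0.164, and those of differently numbered libraries at −0.234 to 0.202. These ranges overlap, so the values cannot show whether replicate numbers paired samples. Alternatives were edgeR's exact test, DESeq2 1.42.0, RLE size factors, other count filters, a replicate block, leaving out each library, organelle genes left out and counts thinned to the smallest library, and, added after the values had been seen, library totals. Sequences, positions and motifs came from RefSeq on TAIR10.1 (36632 of 36796 genes matched) and were read with Biopython 1.88. Protein sequences were not used here.

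The members and the lists of pathway, neighboring and marker genes were chosen with earlier results of these data known. Values per library are given for members with an adjusted p under 0.05, the most abundant member per length of each cluster, and members whose call changed when a library was left out. Genes of the other lists were named where the adjusted p was under 0.05, with values for at most the 4 with the largest changes, besides genes of the chromosome 5 and chromosome 1 clusters named for their position. *AT5G01830*, an ARM repeat gene that carries the symbol *SAUR21* in the annotation, was left out.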

Additional observations from a re-analysis of the deposited data

How the results depend on the processing

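Of 240 values of the 16 called members under the alternatives, 208 kept direction and call, 32 lost the call and 0 reversed. When each library was left out in turn, the members called numbered 5 to 18, those that fell 5 to 17 and those that rose 0 to 2. The corresponding counts were 1 to 6, 1 to 5 and 0 to 1 for the other SAUR genes, 2 to 13, 2 to 13 and 0 to 1 for the pathway, and 1 to 6, 1 to 5 and 0 to 1 for the neighboring genes. A fold change above 2 as well left 1 member that rose.

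With the replicate block, 14 members were called, of which 1 rose. *SAUR62*, *SAUR66* and *SAUR41* lost their calls and *SAUR19* gained one. In the same fit with the block, 4 other SAUR genes were called, of which 0 rose.

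With at least 10 counts in every library, 3 other SAUR genes were called, of which 0 rose, and 2 pathway genes rose. Without a filter, 0 pathway genes rose. With library totals, 6 pathway genes fell and 5 rose, 1 neighboring gene fell and 3 rose, and 5 SAUR members were higher without overlap. DESeq2 gave 1 neighboring gene that rose. The same 16 members were called with RLE size factors, at least 10 counts, organelle genes left out or library totals, and these 16 among 18, 18, 19 and 17 with the exact test, DESeq2, no filter and thinned counts.

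Only members that were not called changed sign. With library totals the log2 fold change was 0.17 for *SAUR28*, 0.013 for *SAUR14*, 0.038 for *SAUR1*, 0.083 for *SAUR5*, 0.048 for *SAUR7* and 0.055 for *SAUR6*, against a median of 0.261 over all genes. It was 0.014 for *SAUR28* with at least 10 counts and −0.049 for *SAUR50* without a filter. Leaving out a library gave −0.84 to 0.73 for *SAUR28*, −0.90 to 0.026 for *SAUR27*, −0.59 to 0.14 for *SAUR14*, −0.26 to 0.32 for *SAUR50*, −0.505 to 0.12 for *SAUR1* and −0.38 to 0.18 for *SAUR5*. The cause of these shifts was not tested. Levels under about 1 CPM, as in *SAUR19*, rest on few counts.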
